A study of Mus musculus with 4 samples.

Results

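The genes described here are 43 genes of glucose breakdown and of the hypoxia-inducible factor (HIF) pathway, out of 22072 gene symbols measured. They were chosen by name: 26 glycolysis genes (glucose and lactate transporters, enzymes and regulatory kinases), 15 HIF targets and the HIF subunit genes Hif1a and Arnt. A symbol was represented by its transcript row with the highest mean FPKM (fragments per kilobase of transcript per M mapped fragments, a level scaled for transcript length and depth), and 13 of the 43 had more than 1 row. Of the 43, 40 reached 1 FPKM in at least 1 library and are called measured members below, while Eno2, Ldhb and Adm stayed under that floor.

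RNA was sequenced from cultured bone marrow leukaemic cells of C57BL/6 mice, all of which carried the MLL-AF9 knock-in allele, an oncogenic fusion found in acute myeloid leukaemia. Control cells were of genotype MLL-AF9-/+. The other cells, named Meis1f/f after their floxed Meis1 alleles, were of genotype Meis1f/fCreER+/- MLL-AF9-/+. CreER is a Cre recombinase that 4-hydroxytamoxifen (4-OHT) releases to cut floxed alleles, and no label used here gives its promoter, the number of animals or whether a culture is 1 clone. Cells of both genotypes were kept for 24 h with 4-OHT at 1000 nM or with vehicle, in medium with SCF, IL-6, IL-3 and GM-CSF, each at 10 ng/ml; its serum content is 10% in one label and 20% in another. There was 1 library for each of 4 groups, so no difference below has a replicate check, a test or a p-value. Because the control cells carry no CreER per the labels, activation of the recombinase and loss of Meis1 cannot be told apart.

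Glycolysis converts glucose to pyruvate in the cytosol, and lactate dehydrogenase turns pyruvate into lactate, which monocarboxylate transporters export. HIF is a dimer of an alpha subunit, which prolyl hydroxylases mark for destruction when oxygen is present, and the constant subunit ARNT. When the alpha subunit is stable, HIF binds hypoxia response elements and raises transcription of many glycolysis genes and of genes for vessel growth, mitochondrial turnover and its own hydroxylases. Haematopoietic stem cells and many leukaemias are known for strong use of glycolysis.

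Estimated depth ran from 18.2 M reads in the Meis1f/f 4-OHT library to 42.2 M in the Meis1f/f vehicle library. Meis1 stood at 11.6 FPKM with vehicle and 12.1 with 4-OHT in control cells, and at 11.8 and 7.38 FPKM in Meis1f/f cells. It was thus lower in the library where deletion was intended, but FPKM also counts reads outside the deleted exons, so this is a partial check of the label. Of the myeloid markers listed, 10 of 12 were in the files, and their summed level was 5926, 6847, 4118 and 6131 FPKM in control cells with vehicle, control cells with 4-OHT, Meis1f/f cells with vehicle and Meis1f/f cells with 4-OHT, the order used for every set of 4 values below. The mast cell and basophil markers Cpa3, Mcpt8 and Fcer1a summed to 180, 182, 1877 and 1712 FPKM and so set the genotypes apart with either treatment. Of these Mcpt8, which is typical of basophils, stood at 113, 112, 1466 and 987 FPKM. Erythroid markers summed to 1.68, 1.14, 9.76 and 10.9 FPKM, low levels that were also higher in Meis1f/f cells with either treatment. The T cell marker Cd3e was at 0 in all 4 libraries and Cd3g at 0, 0.273, 2.11 and 2.41 FPKM, and stroma markers summed to at most 0.0799 FPKM. Of the endothelial markers Cdh5 was near 0 and Pecam1, which myeloid cells also express, lay between 34.7 and 52.2 FPKM. The names of the deposited sheets put Meis1f/f vehicle on sequencing lane 1 and the rest on lane 2. Spearman's rho of transcript length with the 4-OHT difference, across 10922 genes that are not independent replicates, was 0.05 in control cells and -0.24 in Meis1f/f cells. The 4-OHT comparison in Meis1f/f cells, the difference of the effects and the comparison of genotypes under vehicle use the lane 1 library. In these the lane cannot be told apart from treatment or genotype. The part of the mast cell, basophil and erythroid markers in the results below was not tested. Removal of the length trend was among the alternatives given below and moved some counts, and the source of the trend was not tested. In bulk RNA, fewer cells of a type cannot be told apart from less RNA per cell.

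In control cells 34 of the 40 measured members had a higher level with 4-OHT than with vehicle, and in Meis1f/f cells 26 had a lower one. Of all 10922 symbols 55.2% were higher in control cells and 39.3% lower in Meis1f/f cells. With median ratio rescaling both member counts were 31, while the shares of all symbols are without it. That rescaling put the median over all symbols at -0.0065 in control and -0.0046 in Meis1f/f cells. The counts that follow take only genes whose difference in log2(FPKM + 1) was at least 1 in size (the size rule); the added 1 FPKM understates differences of low genes. In control cells 7 of the 40 measured members were higher, namely Slc2a1, Slc16a3, Hk2, Egln3, Vegfa, Ankrd37 and Ndrg1, and 0 were lower, where 1.37% of all 10922 symbols over the floor were higher and 0.879% lower. In Meis1f/f cells 5 were lower, namely Slc2a3, Aldoc, Pgk1, Ndrg1 and Ero1l, and 1 was higher, Eno3, against 2.28% and 1.63% of all symbols. The call of Eno3 rested on 1 of its 2 transcript rows and was lost with the rows summed, as described below. Of the 5 lower genes Aldoc and Pgk1 passed the size rule under every alternative tried, while with the length trend removed Slc2a3 was at -0.94, Ero1l at -0.97 and Ndrg1 at -0.9995. For the difference of the 4-OHT effects (Meis1f/f minus control), 13 members were lower and 1, Eno3, was higher, against 3.63% and 2.11% of all symbols. Under 4-OHT, 15 members were lower and 0 higher in Meis1f/f than in control cells, against 1.61% and 3.72% of all symbols, and under vehicle 2 were lower (Eno3 and Bnip3) and 1 was higher (Slc2a3), against 2.11% and 5.84%; Bnip3 was at -0.98 there with median ratio rescaling. These comparisons share libraries with one another, except that the 4-OHT effects in control and in Meis1f/f cells share none, and neither do the comparisons of the genotypes under vehicle and under 4-OHT.

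In control cells, and in the difference of the effects, the median was larger in size over the HIF targets than over the glycolysis genes. Over the 14 measured HIF targets the median difference with 4-OHT was 0.74 in control cells and -0.33 in Meis1f/f cells. Over the 24 measured glycolysis genes it was 0.24 and -0.30, and over all symbols over the floor 0.05 and 0.11. The difference of the effects had a median of -1.16 over the HIF targets and -0.54 over the glycolysis genes, beside 0.06 over all symbols. Between the genotypes the HIF target median was 0.03 under vehicle and -1.16 under 4-OHT, and the glycolysis median was -0.31 and -0.78, beside -0.06 and 0.00 for all symbols. Without 4-OHT the median glycolysis gene was thus below its control level, whereas the median HIF target was near it. Rescaling the libraries by median ratios moved the median of all symbols in Meis1f/f cells from 0.11 to -0.0046, and the member medians in these cells to -0.43 (glycolysis) and -0.47 (HIF targets). With that rescaling the symbols counted over all genes in Meis1f/f cells went from 178 higher and 249 lower to 114 higher and 352 lower, while the member counts stayed at 1 and 5. For the difference of the effects, upper quartile rescaling turned 231 higher and 396 lower symbols into 178 and 487, and the lower members from 13 to 14.

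**Figure D1:**
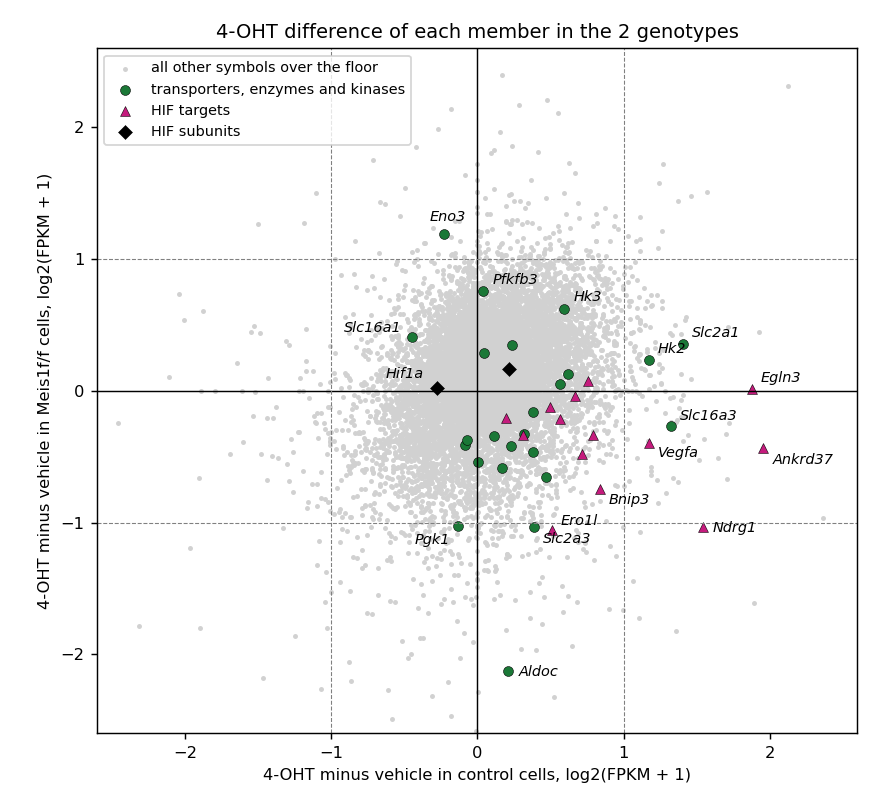
Difference with 4-OHT in control cells (horizontal) against that in Meis1f/f cells (vertical), both in log2(FPKM + 1), 1 point per gene with 1 library per group. Grey points are all other symbols over the floor, dashed lines mark a difference of 1, and 12 of 14 HIF targets lie in the lower right, higher in control cells and lower in Meis1f/f cells.

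The plot of the 2 effects against each other shows where the members lie: 23 of 40 (57.5%) had a positive difference in control cells and a negative one in Meis1f/f cells, against 17.0% of all symbols. This held for 12 of the 14 measured HIF targets and 11 of the 24 measured glycolysis genes. Egln1 and Egln3 were the remaining HIF targets, at 0.07 and 0.01 in Meis1f/f cells, and both turned negative with either rescaling, so that all 14 then shared the pattern, while with rows summed or the length trend removed 11 did. The control 4-OHT library held the highest level of 31 of 40 members, including all 14 HIF targets and 16 of 24 glycolysis genes, against 25.9% of all symbols; with median ratio rescaling these counts were 26, 11 and 14. The Meis1f/f 4-OHT library held the lowest level of 22 of 40 members (55%), against 15.1% of all symbols. All shares of all symbols in this paragraph are without rescaling.

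HIF binds a short core sequence, and the letters around the transcription starts of 6 members that differed in size and direction are shown, each being 250 bases before to 50 bases after the start (RefSeq, build GRCm38.p6, printed 5′ to 3′ on the strand of the gene). Capitals mark the HIF core ACGTG or GCGTG on the strand of the gene and its complement CACGT or CACGC for the other strand; overlapping matches run together. Egln3, Ankrd37, Slc2a1 and Slc16a3 are shown because they were higher with 4-OHT in control cells, Bnip3 because it differed between genotypes with either treatment, and Pgk1 because it was lower with 4-OHT in Meis1f/f cells without being higher in control cells. Hk2, Vegfa and Ndrg1 were also higher in control cells but are not shown, Ndrg1 for lack of a window. The Hk2 window held 2 matches and the Vegfa windows 0 and 2.
Egln3, chr12:54203825-54204124, minus strand: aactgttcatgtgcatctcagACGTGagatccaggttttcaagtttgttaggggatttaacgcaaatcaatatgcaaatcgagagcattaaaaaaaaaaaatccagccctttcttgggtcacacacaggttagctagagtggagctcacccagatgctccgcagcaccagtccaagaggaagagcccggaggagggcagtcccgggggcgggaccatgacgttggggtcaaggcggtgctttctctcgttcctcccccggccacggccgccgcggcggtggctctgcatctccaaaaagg
Ankrd37, chr8:45999801-46000100, minus strand: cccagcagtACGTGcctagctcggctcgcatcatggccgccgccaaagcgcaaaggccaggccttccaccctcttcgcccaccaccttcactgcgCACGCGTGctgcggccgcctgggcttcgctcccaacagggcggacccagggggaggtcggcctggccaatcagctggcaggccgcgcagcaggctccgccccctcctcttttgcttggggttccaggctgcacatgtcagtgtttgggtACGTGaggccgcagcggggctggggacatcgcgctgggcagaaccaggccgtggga
Bnip3, chr7:138909457-138909756, minus strand: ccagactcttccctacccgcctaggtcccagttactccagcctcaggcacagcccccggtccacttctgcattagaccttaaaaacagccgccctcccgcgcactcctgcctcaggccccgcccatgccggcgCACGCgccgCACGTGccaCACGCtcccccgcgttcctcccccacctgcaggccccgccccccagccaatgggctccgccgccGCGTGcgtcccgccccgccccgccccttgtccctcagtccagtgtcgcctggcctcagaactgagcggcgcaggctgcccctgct
Slc2a1, chr4:119108495-119108794, plus strand: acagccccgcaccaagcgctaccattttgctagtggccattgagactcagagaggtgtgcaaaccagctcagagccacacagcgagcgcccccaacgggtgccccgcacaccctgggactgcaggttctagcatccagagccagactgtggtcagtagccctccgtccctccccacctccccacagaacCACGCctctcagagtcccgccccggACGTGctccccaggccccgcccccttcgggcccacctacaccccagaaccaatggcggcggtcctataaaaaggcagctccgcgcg
Slc16a3, chr11:120948817-120949116, plus strand: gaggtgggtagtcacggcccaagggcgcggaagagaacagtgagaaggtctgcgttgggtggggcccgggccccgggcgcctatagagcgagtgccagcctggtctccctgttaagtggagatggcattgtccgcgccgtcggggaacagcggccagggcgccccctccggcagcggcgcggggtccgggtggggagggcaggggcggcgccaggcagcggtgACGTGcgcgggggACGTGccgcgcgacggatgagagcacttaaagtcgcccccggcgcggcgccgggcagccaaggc
Pgk1, chrX:106186850-106187149, plus strand: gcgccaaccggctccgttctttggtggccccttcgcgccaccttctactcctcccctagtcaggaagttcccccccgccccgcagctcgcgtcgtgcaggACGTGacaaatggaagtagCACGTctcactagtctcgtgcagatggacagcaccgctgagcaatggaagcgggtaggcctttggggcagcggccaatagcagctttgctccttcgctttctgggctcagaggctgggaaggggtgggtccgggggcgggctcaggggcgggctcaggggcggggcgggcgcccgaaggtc

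These windows held 1 match in Egln3, 4 in Ankrd37, 5 in Bnip3, and 2 each in Slc2a1, Slc16a3 and Pgk1. Of the 43 members, 40 had an entry in the table, with 58 starts between them, and 46 of the 58 windows (79.3%) held a match. Of all 32851 starts in the table, 43.8% did. The core contains a CG pair and the member windows were rich in CG, with a median of 20.5 pairs against 7. Among windows with at least 15 CG pairs the shares were 82.9% of 41 member starts and 71.4% of 11378 starts. A match is a description of the letters and not a binding site, and the windows of members with and without a difference both held matches.

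Glucose and lactate transporters were divided by isoform. Slc2a1, which encodes the glucose transporter GLUT1 and is a classical HIF target, stood at 35.6, 96.0, 28.6 and 36.9 FPKM. It was high in the control 4-OHT library alone, with a ratio of 4-OHT to vehicle of 2.70 (95% exact counting interval 2.58 to 2.83) in control cells and 1.29 (1.22 to 1.37) in Meis1f/f cells. These intervals cover counting error only, since reads include PCR copies and cultures were not repeated. Slc2a3, which encodes the high-affinity glucose transporter GLUT3, stood at 20.9, 27.7, 46.1 and 22.0 FPKM and was high in the Meis1f/f vehicle library alone. Its ratio was 1.32 (1.25 to 1.40) in control and 0.478 (0.452 to 0.504) in Meis1f/f cells. Slc2a1 therefore made up 63.0% and 77.6% of the summed level of both transporters in control cells and 38.3% and 62.7% in Meis1f/f cells.

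Slc16a3, which encodes the lactate exporter MCT4, stood at 64.3, 163, 34.4 and 28.5 FPKM. Its ratio was 2.53 (2.44 to 2.62) in control cells and 0.829 (0.777 to 0.883) in Meis1f/f cells, and under 4-OHT the Meis1f/f level was 0.176 (0.165 to 0.186) of the control level. With its 3 rows summed it stood at 88.8, 190, 62.4 and 51.3 FPKM, in the same order. Slc16a1, which encodes the monocarboxylate transporter MCT1, stood at 51.2, 37.3, 29.3 and 39.3 FPKM. It went the other way, with a ratio of 0.729 (0.70 to 0.76) in control and 1.34 (1.28 to 1.40) in Meis1f/f cells. The share of Slc16a3 in the sum of both was 63.4%, 83.6%, 68.0% and 56.7%.

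**Figure D2:**
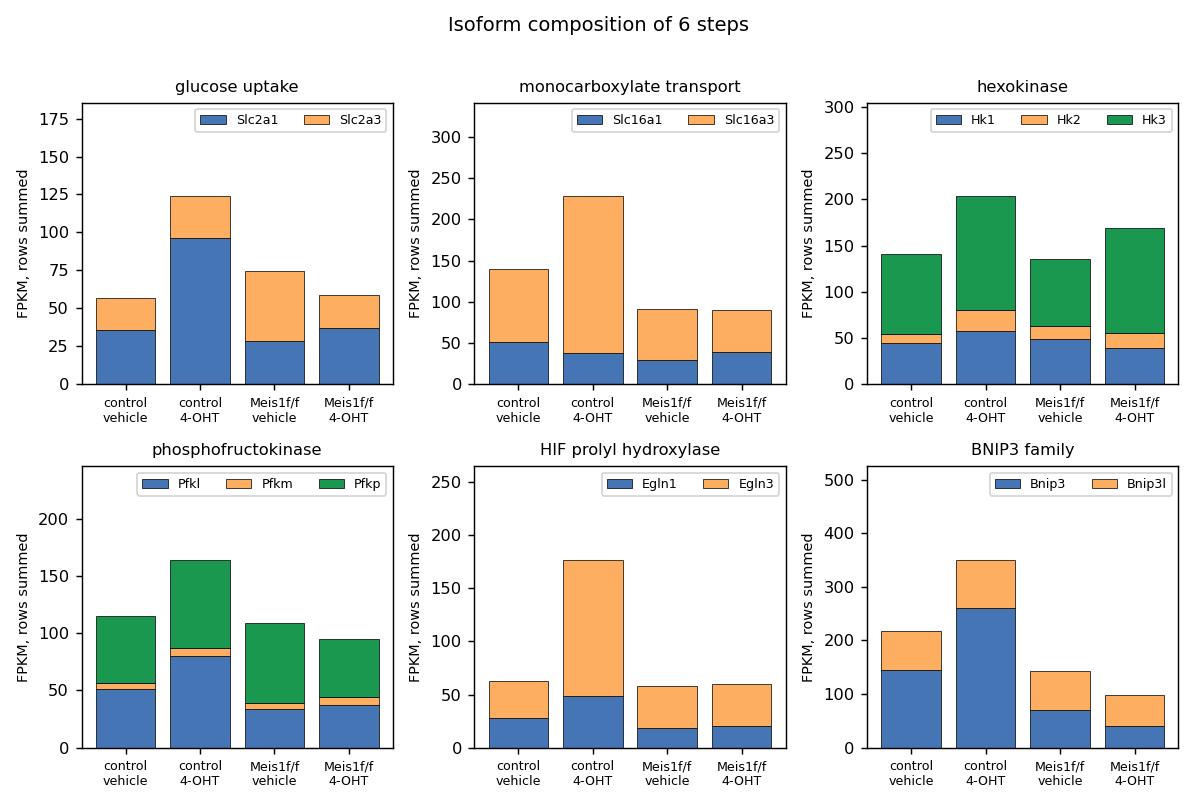
Level of each isoform (FPKM, transcript rows summed; stacked bars from 0) in the 4 libraries for 6 steps, 1 library per bar. In all 6 steps the bar is tallest in the control 4-OHT library. There Slc2a1, Slc16a3, Egln3 and Bnip3 make up 77.6%, 83.6%, 72.5% and 74.5% of the glucose uptake, lactate transport, HIF prolyl hydroxylase and BNIP3 bars.

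All 10 genes of upper glycolysis, from hexokinase to triose phosphate isomerase, stood higher with 4-OHT in control cells, with a median difference of 0.38. In Meis1f/f cells 7 of the 10 stood lower (6 with rows summed; median -0.34), and all 10 were below the control level under 4-OHT (median -0.79). Of all symbols 55.2%, 39.3% and 49% did so, in the same order. Hk2, the inducible hexokinase that binds mitochondria, stood at 9.93, 23.7, 13.5 and 16.1 FPKM. Its ratio was 2.38 (2.24 to 2.54) in control cells and 1.19 (1.12 to 1.27) in Meis1f/f cells, and its difference in control cells was 0.94 with a pseudocount of 5. Hk3, a hexokinase typical of myeloid cells, stood at 48.2, 73.2, 43.3 and 67.3 FPKM in its main row and was the most abundant isoform in each library with its 4 rows summed. Unlike most members it had nearly the same ratio in both genotypes, 1.52 (1.46 to 1.58) and 1.55 (1.49 to 1.62). Hk1, the constitutive hexokinase, stood at 43.9, 55.1, 47.6 and 37.7 FPKM, highest with 4-OHT in control cells and lowest with 4-OHT in Meis1f/f cells. With rows summed, Hk3 gave between 53.8% and 67.5% of the hexokinase level, and Hk2 gave 7.07%, 11.7%, 10.0% and 9.54%.

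Gpi1, glucose-6-phosphate isomerase, stood at 403, 524, 364 and 327 FPKM, with ratios of 1.30 (1.28 to 1.32) and 0.896 (0.881 to 0.912). Pfkl, the liver-type phosphofructokinase of the committed step, stood at 51.5, 79.7, 33.8 and 37.2 FPKM, and Pfkp, the platelet type, at 58.8, 76.9, 69.6 and 50.3 FPKM. Both were highest with 4-OHT in control cells, but Pfkp was lower with 4-OHT in Meis1f/f cells (0.723, 0.696 to 0.75) and Pfkl was not (1.10, 1.05 to 1.15; its difference was -0.0010 with median ratio rescaling). Pfkp made up 51%, 46.9%, 63.8% and 53.2% of the phosphofructokinase level and Pfkl 44.7%, 48.6%, 31.1% and 39.3%. Pfkm, the muscle type, stood at 4.97, 7.28, 5.58 and 3.17 FPKM, but a second row was at 3.91 FPKM in the Meis1f/f 4-OHT library alone. With its 3 rows summed Pfkm was at 4.97, 7.28, 5.58 and 7.08 FPKM, so its difference of the effects shrank from -1.13 to -0.17 and no direction in Meis1f/f cells is given for it.

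Aldoc, the brain-type aldolase, had the largest negative difference with 4-OHT in Meis1f/f cells among the 40 measured members. It stood at 32.8, 38.1, 58.9 and 12.7 FPKM, with ratios of 1.16 (1.08 to 1.25) and 0.216 (0.194 to 0.240), and so was highest in one Meis1f/f library and lowest in the other. Aldoa, the main aldolase, stood at 1075, 1207, 969 and 646 FPKM, and the ratio in Meis1f/f cells was 0.666 (0.655 to 0.677). Aldoc made up 2.79%, 2.83%, 5.40% and 1.83% of the aldolase level. Tpi1, triose phosphate isomerase, stood at 553, 599, 334 and 263 FPKM, so both Meis1f/f libraries were below both control libraries.

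Lower glycolysis runs from Gapdh to lactate dehydrogenase. Of its 9 genes 7 were measured members, and in control cells 3 of these had a positive difference, where 55.2% of all symbols did. Their median difference with 4-OHT was -0.07 in control and -0.41 in Meis1f/f cells. Pgk1, phosphoglycerate kinase, which forms the first ATP of the pathway, stood at 1220, 1111, 945 and 465 FPKM. Its ratio was 0.911 (0.899 to 0.922) in control and 0.492 (0.483 to 0.501) in Meis1f/f cells, so that the Meis1f/f 4-OHT library stood alone at the low end. Gapdh, glyceraldehyde-3-phosphate dehydrogenase, stood at 2604, 2453, 2203 and 1654 FPKM. Pkm2, pyruvate kinase, whose single row does not separate the PKM1 and PKM2 splice forms, stood at 1132, 1135, 898 and 619 FPKM. Ldha, lactate dehydrogenase A, stood at 1385, 1319, 924 and 713 FPKM. For these 3 genes the Meis1f/f libraries were below the control libraries, lowest with 4-OHT, with ratios in Meis1f/f cells of 0.751 (0.742 to 0.759), 0.689 (0.679 to 0.698) and 0.773 (0.761 to 0.785).

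Pgam1, phosphoglycerate mutase, was the exception among the abundant genes of lower glycolysis. It stood at 622, 735, 327 and 418 FPKM, lower in Meis1f/f cells with either treatment but with a ratio above 1 in both genotypes, 1.18 (1.16 to 1.20) and 1.28 (1.25 to 1.30). Eno1, the main enolase, stood at 287, 337, 267 and 200 FPKM, and a near-identical copy, Gm5506, at 1093, 1290, 1020 and 763 FPKM. Reads of the copies can be split arbitrarily. Their ratios in control cells were 1.18 for Eno1, 1.18 for Gm5506 and 1.18 for the sum, and in Meis1f/f cells 0.748 for Eno1, 0.748 for Gm5506 and 0.748 for the sum. Eno3, muscle enolase, stood at 1.42, 1.07, 3.25e-05 and 1.29 FPKM in its main row, and its second row carried the Meis1f/f vehicle level. Summed, Eno3 was at 1.42, 1.23, 1.01 and 1.29 FPKM, with differences of -0.12 and 0.18. The floor was missed by Eno2, neuronal enolase, with 0.0417, 0, 0.310 and 0.0423 FPKM, and by Ldhb, lactate dehydrogenase B, with at most 0.748 FPKM. Ldha thus gave at least 99.9% of the lactate dehydrogenase level in each library. Aldoa, Gapdh, Pgk1, Pgam1 and Ldha each have 2 pseudogenes in the GENCODE annotation that carry their name with the ending ps, and Bnip3l has 1. Pseudogenes under other names were not counted, and no source used here tells how reads of such copies were assigned. Hk1, Hk3, Pfkm, Pfkp and Tpi1 overlap 2210417K05Rik, Unc5a, Senp1, Pitrm1 and Spsb2, and without strand their reads in the overlap cannot be told apart.

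**Figure D3:**
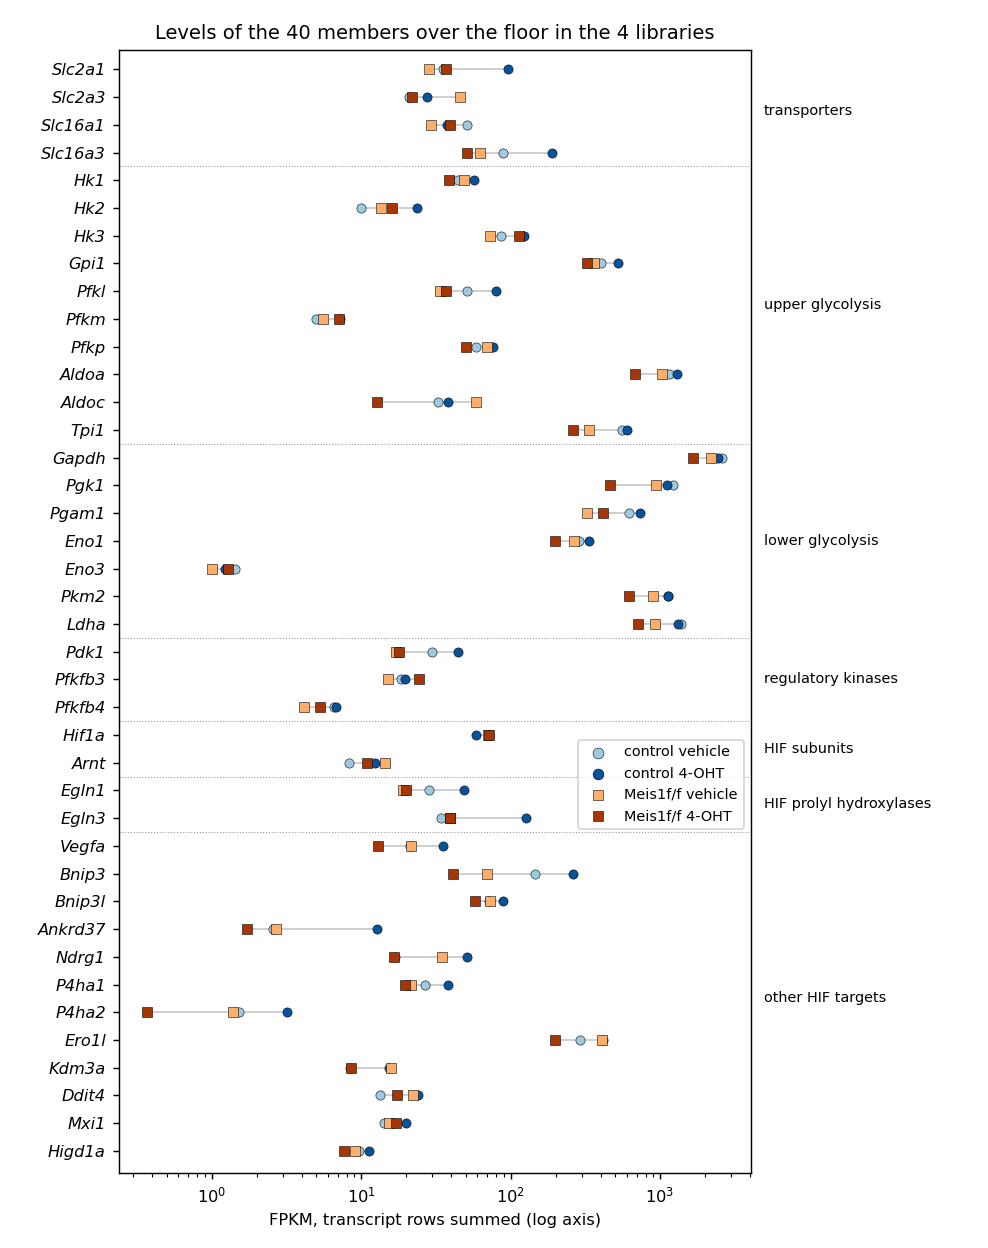
Level of each of the 40 measured members (FPKM, transcript rows summed, log axis) in the 4 libraries, circles for control and squares for Meis1f/f cells, grouped by role. In upper glycolysis and the HIF targets the dark circle (control 4-OHT) lies to the right for most genes, while for Gapdh, Pgk1, Pkm2 and Ldha both control circles lie close together and the dark square (Meis1f/f 4-OHT) lies at the left.

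The regulatory kinases did not form a common pattern. Pdk1, pyruvate dehydrogenase kinase, which keeps pyruvate out of mitochondria and is a HIF target, stood at 29.6, 44.2, 17.2 and 17.8 FPKM. Its ratio was 1.49 (1.43 to 1.56) in control and 1.04 (0.978 to 1.10) in Meis1f/f cells, and both Meis1f/f libraries were below both control libraries. Pfkfb3, which makes the phosphofructokinase activator fructose-2,6-bisphosphate, stood at 16.6, 17.1, 13.1 and 22.8 FPKM, with a ratio of 1.03 (0.966 to 1.10) in control and 1.74 (1.64 to 1.85) in Meis1f/f cells. It was thus highest in the library where most members were lowest. Pfkfb4, its testis-type relative, stood at 6.58, 6.84, 4.16 and 5.29 FPKM.

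Neither HIF subunit gene passed the size rule in any of the 5 comparisons. Of all symbols only 0.879% to 5.84% passed it per direction and comparison, so this does not set the subunit genes apart. Hif1a, the oxygen-sensitive alpha subunit, stood at 71.5, 58.8, 70.6 and 71.6 FPKM and was lowest where the targets were highest. Its ratio was 0.822 (0.796 to 0.849) in control and 1.01 (0.983 to 1.04) in Meis1f/f cells. Arnt, the constant subunit, stood at 6.88, 8.16, 6.82 and 7.77 FPKM in its main row and at 8.33, 12.4, 14.4 and 11.0 FPKM with both rows summed. Its difference in Meis1f/f cells was 0.17 in the main row and -0.37 in the sum, so no direction is given. In the sum its difference was 0.52 with 4-OHT in control cells and 0.73 between the genotypes under vehicle. Epas1, the alternative alpha subunit, was at most 0.566 FPKM. RNA levels do not measure the HIF1A protein, which is set mainly by its destruction.

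The HIF prolyl hydroxylases are both oxygen sensors that mark the alpha subunit and targets that HIF induces. Egln3 stood at 34.1, 128, 39.3 and 39.6 FPKM, with 1 library high and the others close together. Its ratio was 3.75 (3.59 to 3.93) in control and 1.01 (0.957 to 1.07) in Meis1f/f cells. Egln1, the main HIF hydroxylase of most cells, stood at 28.3, 48.5, 18.9 and 20.0 FPKM, with ratios of 1.71 (1.63 to 1.80) and 1.06 (0.988 to 1.13). Egln3 made up 54.6%, 72.5%, 67.5% and 66.5% of the sum of both.

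Ankrd37, a small ankyrin repeat protein gene that HIF induces, stood at 2.56, 12.8, 2.68 and 1.73 FPKM. Its ratio of 5.01 (3.80 to 6.69) in control cells was the largest among the measured members, and that in Meis1f/f cells was 0.646 (0.403 to 0.975). Ndrg1, a stress-responsive growth regulator, stood at 16.9, 51.3, 34.8 and 16.5 FPKM. It passed the size rule in opposite directions, with ratios of 3.03 (2.85 to 3.23) in control and 0.475 (0.441 to 0.511) in Meis1f/f cells, and its difference of the effects, -2.58, was the largest in size among the measured members. Vegfa, the vascular growth factor, stood at 9.65, 23.0, 9.12 and 6.69 FPKM in its main row, with ratios of 2.39 (2.20 to 2.59) and 0.734 (0.656 to 0.819). Summed over 6 rows Vegfa stood at 21.4, 35.3, 21.6 and 13.1 FPKM, and its difference in control cells was then 0.70, under the size rule, as it was at 0.94 with a pseudocount of 5.

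Bnip3 and Bnip3l encode mitochondrial receptors that mark mitochondria for autophagy. Bnip3 stood at 145, 260, 70 and 41.4 FPKM. Both Meis1f/f libraries were below both control libraries, and under 4-OHT the Meis1f/f level was 0.159 (0.150 to 0.168) of the control level. Its ratio with 4-OHT was 1.79 (1.74 to 1.85) in control and 0.591 (0.556 to 0.628) in Meis1f/f cells. Bnip3l stood at 71.8, 89.4, 72.9 and 57.7 FPKM, a smaller difference in the same direction. Bnip3 was the larger part of the pair in control cells (66.9% and 74.5%) and the smaller part in Meis1f/f cells (49.0% and 41.7%).

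Ero1l, an endoplasmic reticulum oxidase that drives disulphide formation, stood at 292, 416, 412 and 197 FPKM. Its ratio was 1.42 (1.41 to 1.45) in control and 0.479 (0.471 to 0.487) in Meis1f/f cells. P4ha1 and P4ha2 encode collagen prolyl hydroxylase subunits and stood at 26.8, 38.2, 21.6 and 19.8 FPKM and at 1.03, 2.34, 0.906 and 0.368 FPKM. The ratios of P4ha2 were 2.26 (1.65 to 3.10) in control and 0.407 (0.215 to 0.696) in Meis1f/f cells, and with both rows summed 2.10 (1.62 to 2.74) and 0.269 (0.142 to 0.447). Ddit4, an inhibitor of mTORC1 signalling, stood at 13.4, 23.9, 22.2 and 17.4 FPKM. Kdm3a, a histone H3 lysine demethylase, stood at 7.01, 10.8, 10.1 and 8.59 FPKM, and with both rows summed at 8.46, 15.3, 15.9 and 8.59 FPKM. For Ero1l, Ddit4 and Kdm3a the control 4-OHT and Meis1f/f vehicle libraries were thus the higher ones. Mxi1, a MYC antagonist, stood at 8.87, 14.7, 11.3 and 10.9 FPKM, and its small negative difference in Meis1f/f cells turned to 0.15 with rows summed. Higd1a, a mitochondrial hypoxia-response protein, stood at 9.72, 11.3, 9.07 and 7.74 FPKM. Gm9790, a gene model at the same locus, stood at 110, 114, 83.4 and 68.4 FPKM, but had no row marked OK in all 4 libraries. How reads were divided between Higd1a and Gm9790 is not known. Adm, the vasodilator adrenomedullin, stood at 0.171, 0.904, 0.126 and 0.0371 FPKM, under the floor. Its ratio was 5.29 (2.10 to 13.5) in control cells, and that in Meis1f/f cells, 0.294 (0.00735 to 2.58), has an interval that includes 1.

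**Figure D4:**
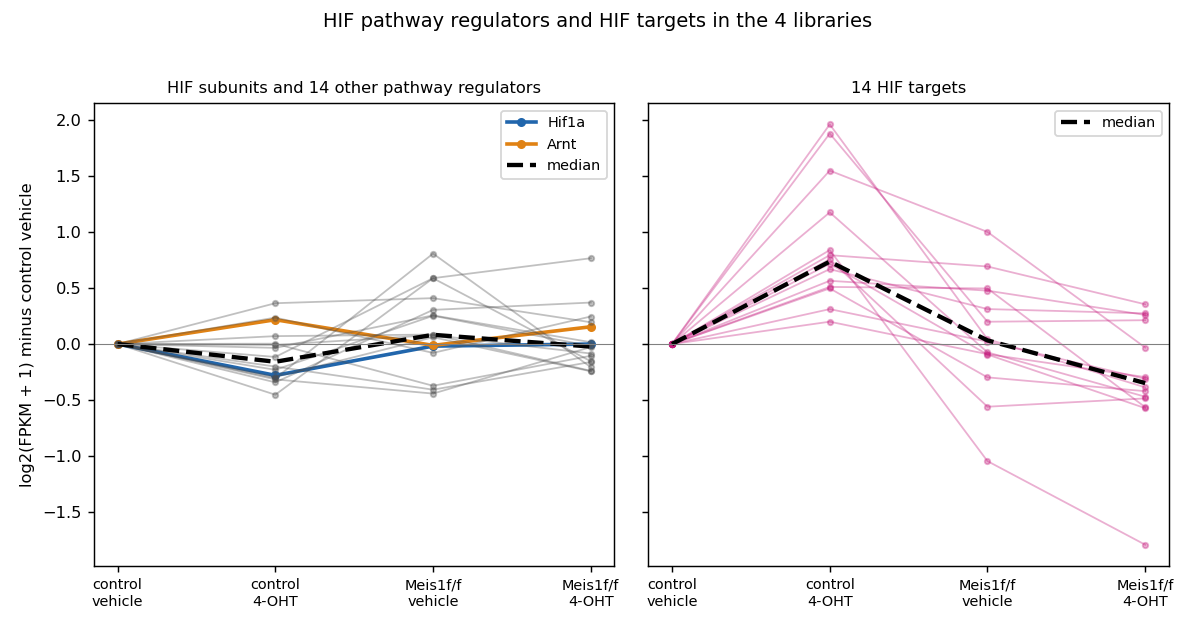
Difference of log2(FPKM + 1) from control vehicle in each library, 1 thin line per gene and a dashed median, for Hif1a, Arnt and 14 other HIF pathway regulators (left) and the 14 measured HIF targets (right). The 4 libraries have no order and lines join values of 1 gene; the targets peak in control 4-OHT, where their median is 0.74, while Hif1a lies at -0.28 and Arnt at 0.22.

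The lines for regulators and targets also give the other components of the pathway. Of 16 other regulators 14 were over the floor, and their median difference was -0.16 in control and -0.19 in Meis1f/f cells. None was counted as higher or lower in control cells, against 1.37% and 0.879% of all symbols. Ep300, a HIF coactivator, was lower in Meis1f/f cells, against 2.28% of all symbols. It stood at 16.1, 12.8, 28.9 and 13.8 FPKM and so was high in the Meis1f/f vehicle library alone. Vhl, the ubiquitin ligase subunit that captures hydroxylated HIF alpha, stood at 12.9, 16.9, 17.5 and 14.9 FPKM, with differences of 0.36 in control and -0.21 in Meis1f/f cells, the direction of most targets. Its partner genes Tceb1 and Tceb2, the elongins C and B, stood at 79.5, 69.1, 59.8 and 71.1 FPKM and at 174, 140, 128 and 171 FPKM. Both were lowest in the Meis1f/f vehicle library, as were 40.1% of all symbols.

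A longer list of 29 other HIF targets, 23 of them over the floor, gave medians of 0.31 in control and -0.26 in Meis1f/f cells. Over all symbols these were 0.05 and 0.11. In control cells 3 were higher and 0 lower, against 1.37% and 0.879% of all symbols. In Meis1f/f cells 3 were lower and 0 higher, against 2.28% and 1.63%. For the difference of the effects 8 were lower, against 3.63%. Selenbp1, selenium-binding protein 1, stood at 44.3, 69.9, 40.1 and 9.76 FPKM, low in the Meis1f/f 4-OHT library alone. Stc2, a secreted glycoprotein, stood at 5.54, 11.2, 21.1 and 8.78 FPKM and was highest in the Meis1f/f vehicle library. Plod2, a collagen lysyl hydroxylase, stood at 2.05, 4.46, 3.18 and 1.35 FPKM. The members higher in control cells, named after their values were seen, were Gys1, glycogen synthase (19.6, 54.2, 15.4 and 22.8 FPKM), Ak4, a mitochondrial adenylate kinase (13.3, 34.6, 9.0 and 12.6 FPKM), and Zfp395 (3.91, 9.05, 6.86 and 5.65 FPKM).

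Of 27 other genes of glycolysis 14 were over the floor, with medians of 0.21 in control and 0.30 in Meis1f/f cells. In Meis1f/f cells 5 of the 14 had a lower level with 4-OHT, where 39.3% of all symbols did. The size rule was passed by 1 of the 14 with 4-OHT, as higher in control cells, against 1.37% of all symbols. That gene was Pfkfb1, a bifunctional fructose-2,6-bisphosphate enzyme, at 0.419, 2.02, 0.980 and 1.35 FPKM. Slc2a6, a lysosomal glucose transporter family member, stood at 12.6, 17.9, 22.4 and 19.1 FPKM, and Gpd2, the mitochondrial glycerol-3-phosphate dehydrogenase, at 13.1, 15.1, 23.8 and 17.3 FPKM. Both were highest in the Meis1f/f vehicle library, as was Pgam2, muscle phosphoglycerate mutase, at 1.70, 1.76, 3.18 and 1.65 FPKM.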

How the data were processed

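RNA was sequenced from 4 libraries, 1 per group, each assigned to its group from its own label. The deposited tables gave, per the file headers, the FPKM of 28107 transcript rows per library and a coverage signal (mean read depth per base), both computed by the authors. The submitters' processing notes name Bowtie and the mm8 build. Not given in the sources used here are versions, annotation, strandedness and the tool behind FPKM, and no coordinates of the files are printed. All member rows were marked OK in all 4 libraries. The members, the gene lists, the floor and the size rule were chosen with earlier results of these data known.

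Differences were taken in log2(FPKM + 1) over the 10922 symbols with at least 1 FPKM in at least 1 library and a row marked OK in all 4. Named are all members, Meis1, and in each other list at most 4 genes whose difference of the effects was largest in size. The median coverage times length of low transcripts, 45.3 to 45.9 bases, gave the value of 1 read, with a second peak near 2 reads, and so estimated depths of 28.1, 21.9, 42.2 and 18.2 M reads. Ratios of FPKM carry 95% exact (Clopper-Pearson) intervals from these reads, which cover counting error only. Promoter windows are from RefSeq (GRCm38.p6), matched by symbol, with Pkm2 and Ero1l as Pkm and Ero1a. Slc2a3, Bnip3l and Ndrg1 are named without a window. The difference and interval code was tested on simulated data. Python 3.11.15, pandas 2.3.3, numpy 2.4.6 and scipy 1.17.1 were used. Alternatives were other pseudocounts, floors and scalings, summed rows, rows of every status and removal of the length trend; Eno1 summed with Gm5506 was added after the data were seen.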

Additional observations from a re-analysis of the deposited data

Results flagged for a closer look

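With 4-OHT, 22 of the 40 measured members had ratios on opposite sides of 1 in the 2 genotypes, both beyond their counting intervals. Of all 10922 symbols over the floor 17.6% did. Because there was 1 library per group, the difference between the genotypes was not tested, and library-to-library variation is not in those intervals. In 21 of them the control difference was positive and the Meis1f/f difference negative. Slc16a1 was the opposite, with a difference of the effects (Meis1f/f minus control, log2) of 0.85.

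Among the transporters and glycolysis enzymes the difference of the effects was -1.42 for Slc2a3, -1.59 for Slc16a3, -0.65 for Hk1, -0.54 for Gpi1 and -1.13 for Pfkm. It was -0.84 for Pfkp, -0.75 for Aldoa, -2.33 for Aldoc, -0.46 for Tpi1 and -0.65 for Eno1. With its rows summed Pfkm was at -0.17, and its ratio in Meis1f/f cells, 1.27 (1.10 to 1.43), was then on the same side of 1 as in control cells.

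Among the HIF targets it was -1.57 for Vegfa, -1.58 for Bnip3, -0.64 for Bnip3l, -2.39 for Ankrd37 and -2.58 for Ndrg1. It was -0.62 for P4ha1, -1.19 for P4ha2, -1.57 for Ero1l, -0.78 for Kdm3a, -1.13 for Ddit4 and -0.40 for Higd1a. Kdm3a was at -1.60 with its rows summed.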

How the results depend on the processing

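The 10 medians over glycolysis genes and over HIF targets in the 5 comparisons were recomputed under 9 alternatives. All 90 values kept their sign and lay within the spread interval of the median over members. Rows of every status could not move a median, since all member rows were marked OK. The interval treats genes as independent, which they are not. It spanned both signs for glycolysis genes in Meis1f/f cells (-0.46 to 0.29) and for HIF targets between genotypes under vehicle (-0.30 to 0.50). In control cells the HIF target median ran from 0.58 to 0.80 and the glycolysis median from 0.17 to 0.24, and in Meis1f/f cells they ran from -0.47 to -0.17 and from -0.43 to -0.22. The HIF target median of the difference of the effects ran from -1.46 (rows summed) to -0.78 (pseudocount 5).

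Counts of members near the size rule moved more. In Meis1f/f cells the 5 lower members became 3 with a pseudocount of 5 and 2 with the length trend removed, when Slc2a3 was at -0.94, Ero1l at -0.97 and Ndrg1 at -0.9995. The single higher member, Eno3, became 0 with a pseudocount of 5, a floor of 5 FPKM or rows summed, in Meis1f/f cells and for the difference of the effects. Under vehicle, 1 higher member became 2 with a pseudocount of 0.1 or either rescaling, when Ndrg1 joined, and 0 with a pseudocount of 5 or the length trend removed. The 2 lower members there became 1 with a pseudocount of 5, a floor of 5 FPKM, rows summed, either rescaling or the length trend removed. Counts over all symbols followed the pseudocount. With 0.1 and with 5, the 150 higher and 96 lower symbols in control cells became 479 and 203, and 13 and 20. In Meis1f/f cells 178 and 249 became 423 and 433, and 38 and 72, and for the difference of the effects 231 and 396 became 430 and 718, and 53 and 109. Under vehicle 638 and 230 became 1052 and 398, and 237 and 55, and under 4-OHT 406 and 176 became 646 and 338, and 150 and 51. A floor of 5 FPKM, which leaves 8290 symbols, gave 92 higher in control cells, 242 lower for the difference of the effects, and 262 higher and 106 lower under 4-OHT. Rows summed gave 63 lower in control cells, and median ratio rescaling 114 higher in Meis1f/f cells. No paired analysis was possible because there was 1 library per group. That number limits the precision, and for P4ha2, whose main row drew about 15.3 reads with 4-OHT in Meis1f/f cells, so does depth.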

Other observations

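Routes that leave glycolysis were looked at beside it. All 8 listed genes of the pentose phosphate pathway, which makes NADPH and ribose from glucose-6-phosphate, were over the floor and 0 passed the size rule in any of the 5 comparisons. Of all symbols 0.879% to 5.84% passed it per direction and comparison, so a count of 0 does not set these 8 genes apart. The median difference of the 8 genes with 4-OHT was 0.01 in control and 0.19 in Meis1f/f cells. Rpe, ribulose phosphate epimerase, stood at 45.5, 40.6, 25.2 and 42.9 FPKM, H6pd, the reticulum form of the first enzyme, at 29.3, 23.7, 17.1 and 22.6 FPKM, and Taldo1, transaldolase, at 312, 275, 252 and 318 FPKM. These 3 were lowest in the Meis1f/f vehicle library, which held the lowest level of 40.1% of all symbols. Pgd, phosphogluconate dehydrogenase, was lowest with 4-OHT in Meis1f/f cells, at 271, 266, 222 and 167 FPKM.

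Of 13 listed genes of pyruvate entry into mitochondria 11 were over the floor, with medians of -0.07 in control and 0.19 in Meis1f/f cells. Brp44, a subunit of the mitochondrial pyruvate carrier, stood at 49.7, 37.1, 22.8 and 46.6 FPKM. Its difference of the effects was 1.41, the only one of the 11 to pass the size rule there, beside 2.11% of all symbols higher. Dlat and Pdhb, subunits of pyruvate dehydrogenase, stood at 23.5, 22.8, 12.7 and 22.0 FPKM and at 73.9, 71.4, 49.0 and 65 FPKM, and Pcx, pyruvate carboxylase, at 1.10, 1.88, 2.74 and 2.47 FPKM. Brp44, Dlat and Pdhb were lowest in the Meis1f/f vehicle library, as were 40.1% of all symbols. It is also the library on the other lane. Lane and group cannot be told apart there.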
